A study of Arabidopsis thaliana with 18 samples.

Results

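Arabinogalactan proteins (AGPs) and fasciclin-like arabinogalactan proteins (FLAs) were followed in rosette leaves of Arabidopsis thaliana under drought. The set was every gene whose name in the deposited files is AGP or FLA followed by digits and at most 1 letter. It held 51 of the 27655 genes in each file, 30 AGP genes and 21 FLA genes. The rule reads names and no expression value, although the family was picked with earlier results of these data known. A total of 41 members (27 AGP and 14 FLA genes) had 20 or more reads over the 18 libraries and were tested. The 10 others (AGP3, AGP13, AGP30, FLA3, FLA5, FLA6, FLA14, FLA19, FLA20 and FLA21) had 0 to 16 reads in all, with no read at all for FLA6 and FLA21.

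The study compared 3 genotypes, each with water withheld or with regular watering. The line jar1-11 is labelled a knockdown of JAR1, the gene for the enzyme that couples jasmonic acid to isoleucine (insertion line SALK_034543). The line JAR1-OE is labelled an overexpressor of JAR1.1, and wild type (WT) is Col-0. All plants had 18 days of regular watering. Drought plants then had no water for up to 14 days, control plants stayed watered, and whole rosette leaves were taken on day 32. Each of the 6 groups had 3 libraries called biological replicates, with no statement of how many plants each came from, so each p-value speaks only to differences among libraries, which may be technical. The promoter of the transgene and the number of independent lines per genotype are both unstated in the labels. In whole leaves, fewer cells of a type and less RNA per cell cannot be told apart.

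AGPs are cell-surface and wall glycoproteins whose protein backbone is rich in hydroxyproline and carries large chains of galactose and arabinose. Prolyl 4-hydroxylases modify the backbone, galactosyltransferases start the sugar chains, and many members are held to the plasma membrane by a lipid anchor. FLAs add fasciclin domains, which are known for adhesion, and several are linked to cell expansion or to secondary walls. AG peptides are very short members: their coding lengths here were 177 to 225 bases, against 177 to 1470 bases over all 51 members.

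The libraries held 4716155 to 9506727 reads on genes, sequenced from transcript 3' ends, so that 3 reads stood for 0.316 to 0.636 CPM, reads scaled to a common library size. JAR1 averaged 2.85 ± 1.18 CPM in jar1-11 drought and 33.3 ± 7.30 CPM in WT drought (SD, n = 3 each; log2 fold change -3.59). With water it averaged 5.74 ± 0.80 CPM in jar1-11 and 25.4 ± 4.31 CPM in WT (log2 fold change -2.14). Transgene reads numbered 26 to 558 in the 6 JAR1-OE libraries and 0 in the other 12, while JAR1 itself averaged 33.0 CPM in JAR1-OE drought and 33.3 CPM in WT drought. The 4 leaf photosynthesis genes examined summed to 1298 to 26565 CPM per library, and 3 seed storage genes to at most 0.638 CPM. Flower identity and pollen genes stood high in WT drought 1 and in the JAR1-OE drought libraries.

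The 250 bases before the start of 3 members are shown because AGP1 and AGP2 had the largest rises in jar1-11 and WT among members with at least 10 CPM, and AGP7 one of the deepest falls. They come from RefSeq TAIR10.1, a build that gave all 51 members the same span as the deposited files, and are written 5' to 3' on the gene's strand. Capitals mark ACGTG on either strand, the core of the abscisic acid response element.
AGP1 (chr5:25721483-25721732, plus strand): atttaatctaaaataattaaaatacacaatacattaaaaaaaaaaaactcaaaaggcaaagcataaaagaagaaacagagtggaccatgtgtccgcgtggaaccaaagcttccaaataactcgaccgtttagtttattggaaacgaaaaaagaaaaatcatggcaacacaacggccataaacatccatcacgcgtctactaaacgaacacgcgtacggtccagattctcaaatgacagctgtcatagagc
AGP2 (chr2:9538964-9539213, minus strand): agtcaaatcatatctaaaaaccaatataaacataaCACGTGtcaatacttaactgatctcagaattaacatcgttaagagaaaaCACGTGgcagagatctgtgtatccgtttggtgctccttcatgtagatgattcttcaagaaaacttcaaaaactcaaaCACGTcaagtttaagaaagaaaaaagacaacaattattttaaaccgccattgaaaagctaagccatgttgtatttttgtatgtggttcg
AGP7 (chr5:26129548-26129797, minus strand): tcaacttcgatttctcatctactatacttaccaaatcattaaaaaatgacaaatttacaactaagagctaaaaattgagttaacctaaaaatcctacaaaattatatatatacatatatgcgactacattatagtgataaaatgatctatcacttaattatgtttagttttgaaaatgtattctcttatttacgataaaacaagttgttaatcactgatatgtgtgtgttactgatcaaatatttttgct

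AGP2 held 5 matches to ACGTG, counting both strands, and 2 of its stretches were the palindrome CACGTG, which contains ACGTG on each strand. AGP1 and AGP7 held none in this window. Over the tested members, 6 of 41 (14.6%) had a match, against 23.9% of 19648 tested genes with a window. The dehydration element core CCGAC was in 14.6% of members and 13% of genes, TTGAC in 29.3% and 44.9%, and GCCGCC in 0 members and 1.93% of genes. A match is a run of letters, not a binding site.

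Under drought more members fell than rose in each genotype, and most in jar1-11. In jar1-11, 25 of the 41 members fell and 5 rose, where 53.5% of all 19752 tested genes were called (27.7% lower, 25.9% higher). In JAR1-OE 19 fell and 1 rose, against 26% of all genes (13.6% lower, 12.4% higher). In WT 22 fell and 7 rose, against 35.4% of all genes (18.8% lower, 16.6% higher). The members' median log2 fold change was -3.00 in jar1-11, -0.84 in JAR1-OE and -1.19 in WT, while the median over all genes lay within 0.03 of 0. No FLA gene rose in any genotype: 12 of 14 fell in jar1-11, 7 in JAR1-OE and 10 in WT. The other FLA genes did not pass the test.

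**Figure D1:**
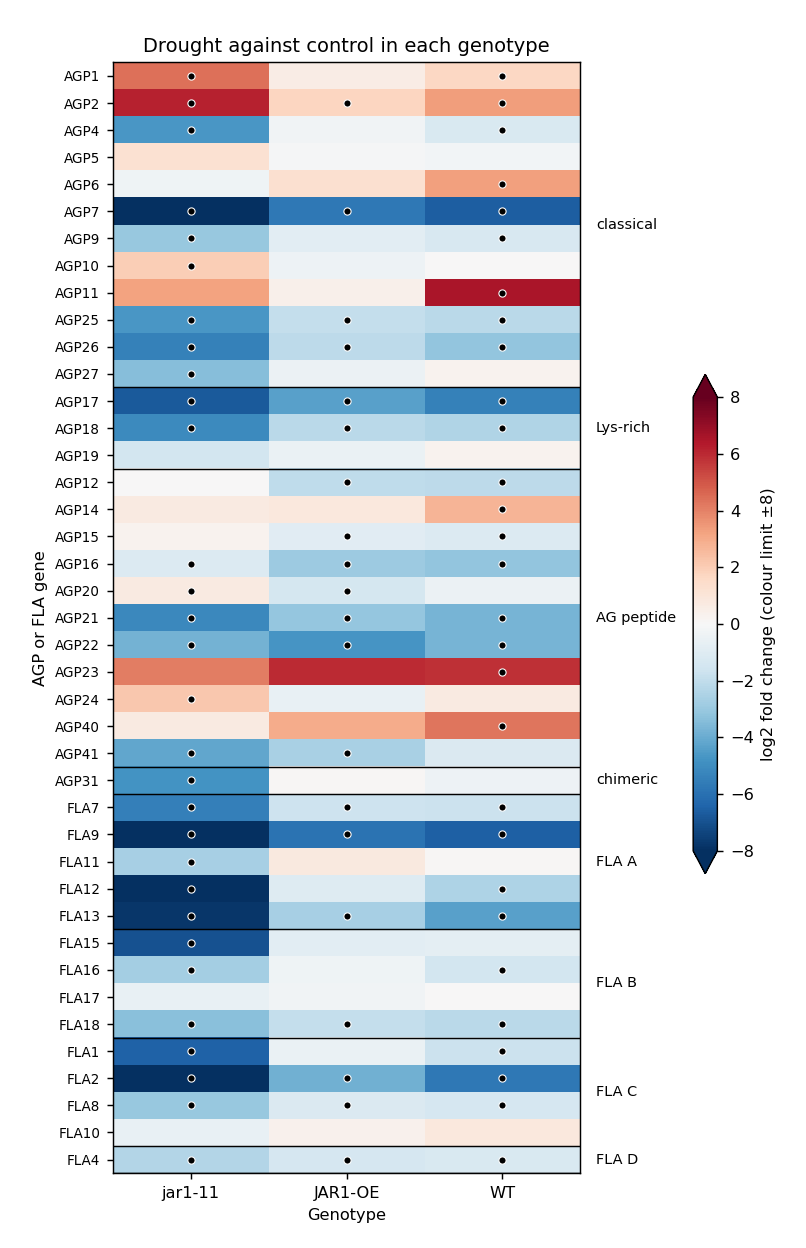
Log2 fold change of drought against control (colour, limits ±8) for the 41 tested genes in rows, grouped by class, in jar1-11, JAR1-OE and WT columns. Dots mark genes past an adjusted p of 0.05; 15 genes are lower in all 3 columns, and fitted values of genes with 0 reads in a group depend on the model's prior count.

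Summed over the 21 FLA genes, the level was 85.6, 39.0 and 90.5 CPM in jar1-11 drought, against 1422, 1409 and 1029 CPM in jar1-11 control. In JAR1-OE it was 366, 437 and 349 CPM under drought, against 1338, 1420 and 1413 CPM with water. In WT it was 263, 193 and 152 CPM under drought, against 1035, 1325 and 1049 CPM with water. The drought and control libraries did not overlap in any genotype, and the 3 jar1-11 drought libraries were the lowest of the 18. The 30 AGP genes summed to 5926, 7419 and 4173 CPM in jar1-11 drought, against 4169, 4991 and 4225 CPM in jar1-11 control, and these ranges overlap. In JAR1-OE the sum was 1491, 2202 and 1361 CPM under drought, against 3313, 3955 and 3609 CPM with water. In WT it was 1715, 2153 and 1453 CPM under drought, against 3661, 4446 and 4003 CPM with water. AGP sums under drought were thus below every control library in JAR1-OE and WT, as FLA sums were, and not in jar1-11. AGP15 alone supplied 60.6% to 70.3% of all members' reads in jar1-11 drought, 43.5% to 46.2% in JAR1-OE drought and 57.6% to 71.9% in WT drought.

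**Figure D2:**
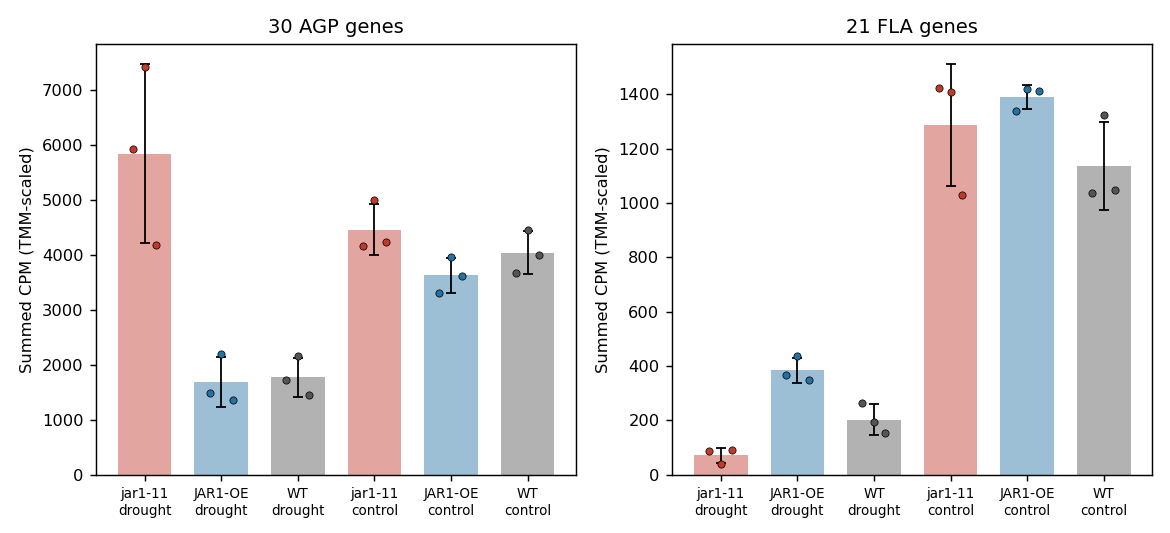
Summed TMM-scaled CPM of the 30 AGP genes (left) and 21 FLA genes (right) in each group; bars are means, error bars SD and points the 3 libraries. FLA sums average 71.7 CPM in jar1-11 drought, 384 CPM in JAR1-OE drought and 203 CPM in WT drought, and over 1100 CPM in each control group.

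Of the classical AGPs, AGP1 and AGP2 rose. AGP2 had 579, 928 and 419 CPM in jar1-11 drought, against 8.02, 8.25 and 11.0 CPM in jar1-11 control (log2 fold change 6.15 ± 0.40 SE, adjusted p = 3.02e-10). It had 61.3, 35.4 and 25.5 CPM in JAR1-OE drought, against 16.0, 11.7 and 10.1 CPM in JAR1-OE control (1.70 ± 0.35, adjusted p = 0.00122). It had 39.4, 86.7 and 69.4 CPM in WT drought, against 4.67, 6.21 and 8.22 CPM in WT control (3.33 ± 0.38, adjusted p = 1.11e-06). AGP2 was the 1 member that rose in all 3 genotypes, with no overlap between drought and control. AGP1 had 659, 981 and 380 CPM in jar1-11 drought, against 16.6, 43.3 and 36.4 CPM in jar1-11 control (4.40 ± 0.41, adjusted p = 3.39e-08). In WT it had 47.0, 104 and 72 CPM under drought, against 23.8, 27.1 and 19.6 CPM with water (1.66 ± 0.38, adjusted p = 0.00196). In JAR1-OE, where the ranges overlap, its change was 0.57 ± 0.37 and did not pass (adjusted p = 0.278).

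AGP7, another classical AGP, fell in all 3 genotypes. It had 0, 0 and 0.208 CPM in jar1-11 drought, against 143, 123 and 106 CPM in jar1-11 control. That is 1 read against 2835, a 2411-fold lower level with a counting interval of 432 to 95245. AGP7 had 2.07, 2.87 and 2.98 CPM in JAR1-OE drought, against 122, 133 and 158 CPM in JAR1-OE control (log2 fold change -5.70 ± 0.32). It had 2.25, 0.887 and 0.308 CPM in WT drought, against 122, 120 and 76.3 CPM in WT control (-6.57 ± 0.36). Drought and control were far apart in each genotype. Intervals and floors of this kind cover counting error only.

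AGP9 and AGP4 fell in jar1-11 and WT. AGP9 had 19.7, 11.5 and 22.3 CPM in jar1-11 drought, against 159, 166 and 106 CPM in jar1-11 control (-3.02 ± 0.36), and its WT change was -1.29 ± 0.33. In JAR1-OE the AGP9 change of -0.82 did not pass (adjusted p = 0.0707). It passed in DESeq2 and in 3 of the 18 fits that left out 1 library (-1.09 to -0.82, adjusted p = 0.0361 to 0.0444). AGP4, also known as JAGGER and needed for the death of a synergid cell after fertilization, changed by -4.64 ± 0.55 in jar1-11 and by -1.19 ± 0.39 in WT, where the libraries overlap and the call was lost when WT drought 2, WT drought 3 or WT control 1 was left out (-0.91 to -0.86, adjusted p = 0.0971 to 0.106). AGP10 rose in jar1-11 with 75.9, 151 and 60.7 CPM under drought, against 22.6, 25.1 and 27.3 CPM with water (1.95 ± 0.33). AGP25 and AGP26 fell in all 3 genotypes. AGP27 fell in jar1-11, on 1 read under drought, and no longer passed without jar1-11 control 1, jar1-11 drought 1 or jar1-11 drought 3. AGP5 did not pass in any genotype, with 1.21 in jar1-11. Without jar1-11 drought 1, jar1-11 drought 3 or WT drought 1 its jar1-11 change passed (1.21 to 1.54, adjusted p = 0.0216 to 0.0484).

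The lysine-rich classical AGPs AGP17 and AGP18 fell in all 3 genotypes. AGP17, known from the rat1 mutant that resists Agrobacterium transformation of roots, had 0, 0.267 and 1.46 CPM in jar1-11 drought, against 50.4, 56.2 and 49.0 CPM in jar1-11 control (-6.69 ± 0.57). It changed by -4.37 ± 0.46 in JAR1-OE and by -5.41 ± 0.50 in WT, with no overlap in either. AGP18 changed by -5.12 ± 0.51 in jar1-11, -2.16 ± 0.34 in JAR1-OE and -2.38 ± 0.39 in WT. AGP19, with 36 reads in all, passed in none.

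The AG peptides went different ways between genotypes. AGP15 had 4227, 4523 and 2959 CPM in jar1-11 drought, against 2853, 3616 and 3137 CPM in jar1-11 control, with overlap (0.29 ± 0.23, adjusted p = 0.313). It had 813, 1218 and 744 CPM in JAR1-OE drought, against 1405, 2194 and 1556 CPM in JAR1-OE control (-0.89 ± 0.23, adjusted p = 0.00788). It had 1139, 1686 and 1105 CPM in WT drought, against 2281, 3031 and 2963 CPM in WT control (-1.07 ± 0.23, adjusted p = 0.00131). The WT and JAR1-OE drought libraries all lay below their controls, but the JAR1-OE call was lost without JAR1-OE control 2 (-0.67, adjusted p = 0.0579). AGP12 passed in the same genotypes and had 183, 304 and 117 CPM in jar1-11 drought, against 209, 191 and 189 CPM in jar1-11 control (0.04 ± 0.31), and 63.6, 50.9 and 23.0 CPM in WT drought, against 168, 257 and 166 CPM in WT control (-2.10 ± 0.33). AGP12 changed by -2.02 ± 0.33 in JAR1-OE.

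AGP16 fell in all 3 genotypes, by 1.10 on the log2 scale in jar1-11, 2.91 in JAR1-OE and 3.18 in WT, and without jar1-11 drought 3 its jar1-11 change did not pass (-0.84, adjusted p = 0.0531). AGP20 had 29.5, 45.9 and 27.0 CPM in jar1-11 drought, against 19.0, 24.6 and 18.6 CPM in jar1-11 control (0.73 ± 0.22, adjusted p = 0.00882). In JAR1-OE it had 11.8, 13.6 and 16.0 CPM under drought, against 32.4, 33.8 and 43.0 CPM with water (-1.40 ± 0.22, adjusted p = 0.000112). The jar1-11 rise of AGP20 did not pass without jar1-11 drought 2 (0.46, adjusted p = 0.0832), and its JAR1-OE fall passed in each fit. AGP24 rose in jar1-11 (2.15 ± 0.49). AGP21, known from root hair patterning, had 5.56, 4.14 and 7.90 CPM in jar1-11 drought, against 219, 250 and 158 CPM in jar1-11 control (-5.18 ± 0.64), and also fell in JAR1-OE (-3.12 ± 0.55) and WT (-3.69 ± 0.58). AGP22 fell in all 3 genotypes and AGP41 in jar1-11 and JAR1-OE, both on few reads. The AGP22 call was lost in WT when WT drought 1, WT drought 2 or WT control 1 was left out, and in jar1-11 without jar1-11 control 1. The AGP41 call in JAR1-OE was lost without JAR1-OE drought 2, and without WT drought 1 AGP41 passed in WT too (-4.39, against -1.18 with all libraries).

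AGP31 is a chimeric AGP with a cysteine-rich domain that is known from vascular tissue and is repressed by methyl jasmonate. It had 1.35, 0.401 and 0.624 CPM in jar1-11 drought, against 17.0, 32.9 and 16.8 CPM in jar1-11 control (-4.77 ± 1.01, adjusted p = 0.000524). In JAR1-OE it had 97.4, 245 and 139 CPM under drought, against 209, 76.0 and 173 CPM with water (0.07 ± 0.61). In WT it had 67.4, 3.93 and 6.94 CPM under drought, against 39.6, 29.6 and 32.2 CPM with water (-0.40 ± 0.66). WT drought 1 was above and the other WT drought libraries below every WT control. Without WT drought 1 the WT change of AGP31 was -2.65 and passed (adjusted p = 0.000286).

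**Figure D3:**
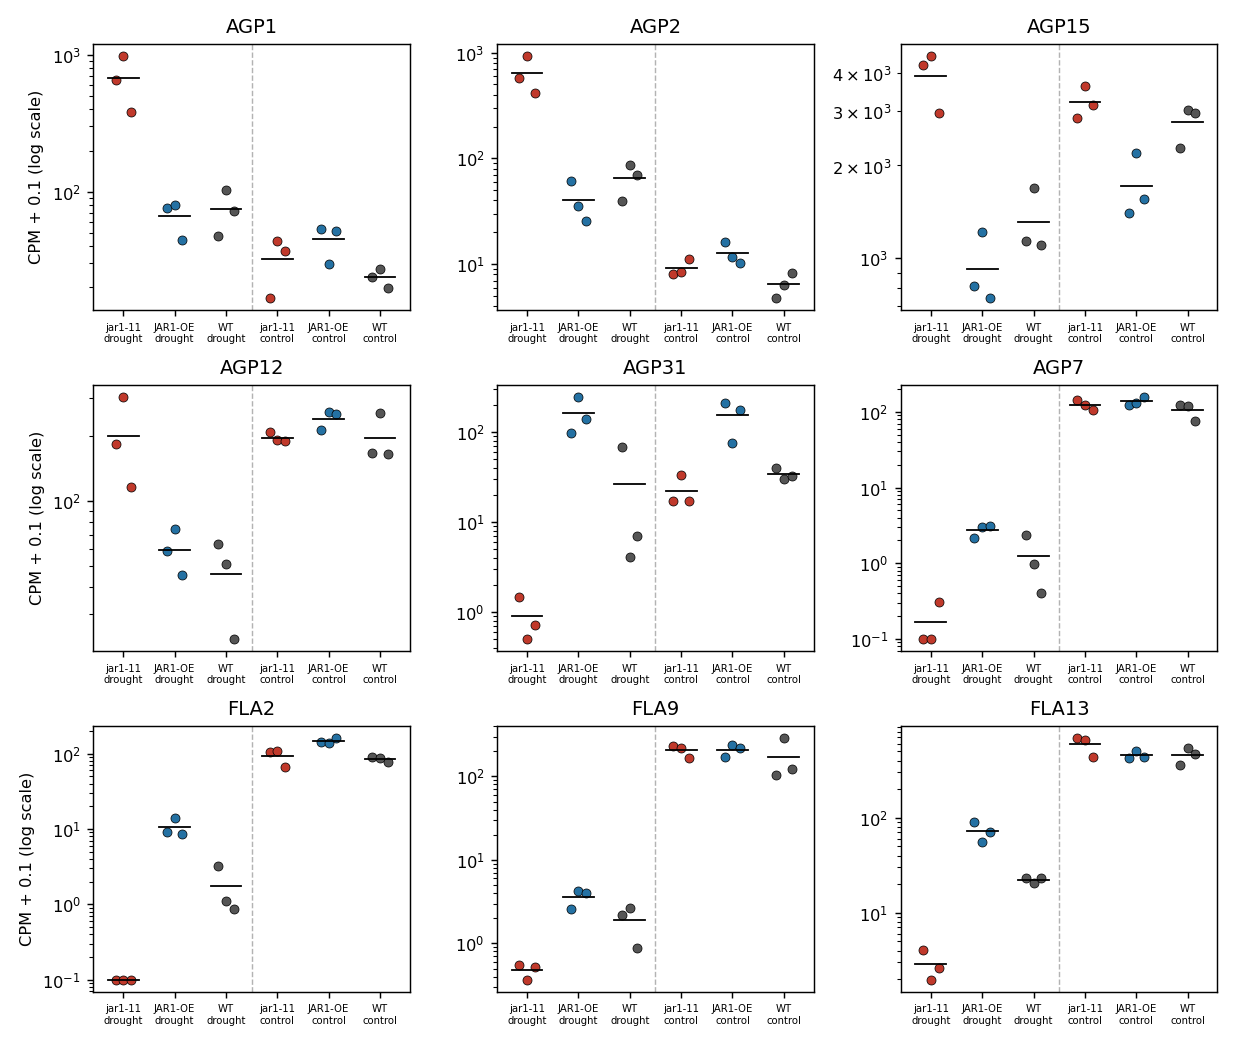
CPM plus 0.1 on a log axis for 9 members in each library (points) with group means (lines), drought groups left of the dashed line and control groups right of it. AGP2 is highest in jar1-11 drought at 419 to 928 CPM, and FLA2 has no read there.

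Of the 5 tested FLA genes of group A, 5 fell in jar1-11, 3 in JAR1-OE and 4 in WT. Over all genes, 27.7%, 13.6% and 18.8% were called lower in the same order. FLA9 had 0.451, 0.267 and 0.416 CPM in jar1-11 drought, against 234, 217 and 164 CPM in jar1-11 control (-9.04 ± 0.52, adjusted p = 5.4e-11). It had 2.46, 4.15 and 3.93 CPM in JAR1-OE drought, against 168, 239 and 219 CPM in JAR1-OE control (-5.90 ± 0.39). It had 2.07, 2.53 and 0.771 CPM in WT drought, against 105, 290 and 121 CPM in WT control (-6.55 ± 0.42). FLA9 was below 5 CPM in each of the 9 drought libraries. FLA13 had 3.91, 1.87 and 2.5 CPM in jar1-11 drought, against 696, 657 and 440 CPM in jar1-11 control (-7.75 ± 0.31). It had 90.5, 55.2 and 71.4 CPM in JAR1-OE drought, against 423, 500 and 439 CPM in JAR1-OE control (-2.65 ± 0.23). It had 23.0, 20.3 and 23.1 CPM in WT drought, against 357, 549 and 464 CPM in WT control (-4.37 ± 0.25). The drought libraries of the 3 genotypes did not overlap with each other for FLA13.

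FLA7 fell in all 3 genotypes (-5.48 ± 0.56 in jar1-11, -1.67 ± 0.31 in JAR1-OE and -1.72 ± 0.36 in WT). FLA11 and FLA12 are known from secondary walls of stems. FLA12 had no read in the 3 jar1-11 drought libraries, against 286 reads in jar1-11 control, at least 81.1-fold lower with 3 reads over the group as the floor. Its WT change was -2.49 ± 0.49, and its JAR1-OE change of -1.05 ± 0.44 did not pass (adjusted p = 0.0905), though it did without JAR1-OE drought 2 (-1.51, adjusted p = 0.0354) or WT drought 1 (-1.05, adjusted p = 0.047). FLA11 changed by -2.66 ± 0.61 in jar1-11. It overlaps a gene on the other strand with 7811 reads against its own 1014, and no label or header says whether counting used strand, so its values are uncertain. Of 13 tested xylem and secondary wall genes, 7 fell and 0 rose in jar1-11 drought. That is 53.8%, against 53.5% of all genes called in either direction and 27.7% called lower. In JAR1-OE 1 fell and 0 rose (7.69%, against 26% in either direction and 13.6% lower). In WT 1 fell and 2 rose (23.1%, against 35.4% in either direction, 18.8% lower and 16.6% higher). The 7 that fell in jar1-11 include the cellulose synthase genes CESA4 (-1.26 ± 0.44) and CESA8 (-2.04 ± 0.45) and the laccase gene LAC4 (-2.21 ± 0.58). The part of cell makeup in these changes was not tested.

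In group C, FLA2 had 0 reads in the 3 jar1-11 drought libraries, against 104, 108 and 66.9 CPM (2122 reads) in jar1-11 control, at least 601-fold lower. It had 9.05, 13.9 and 8.54 CPM in JAR1-OE drought, against 143, 137 and 162 CPM in JAR1-OE control (-3.82 ± 0.28). It had 3.11, 1.01 and 0.771 CPM in WT drought, against 89.9, 86.3 and 78.4 CPM in WT control (-5.75 ± 0.34). No drought library reached a control library. FLA1, known from shoot regeneration, had 3 reads in jar1-11 drought, against 351 in jar1-11 control, 99.5-fold lower with a counting interval of 33.8 to 485, and its WT change was -1.72 ± 0.47. FLA8 fell in all 3 genotypes (-3.00 ± 0.32, -1.16 ± 0.29 and -1.32 ± 0.29 in jar1-11, JAR1-OE and WT). FLA10 passed in none.

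In group B, FLA18 fell in all 3 genotypes, by 3.31 in jar1-11, 1.91 in JAR1-OE and 2.14 in WT on the log2 scale. FLA16 fell in jar1-11 and WT, and FLA15 in jar1-11, where 0 reads against 53 put it at least 15-fold lower. FLA17 passed in none, with 37.1, 16.7 and 36.0 CPM in jar1-11 drought, against 41.6, 46.9 and 48.0 CPM in jar1-11 control (-0.61 ± 0.26, adjusted p = 0.0512). That change passed when 1 of 5 libraries was left out in turn (adjusted p = 0.0273 to 0.0449). In group D, FLA4 is the SOS5 gene of root growth under salt. It changed by -2.33 ± 0.33 in jar1-11, -1.35 ± 0.28 in JAR1-OE and -1.23 ± 0.29 in WT. The receptor kinases FEI1 and FEI2 act with FLA4 in genetic tests. FEI1 changed by -2.67 ± 0.21, -1.52 ± 0.20 and -1.74 ± 0.20 in jar1-11, JAR1-OE and WT, and FEI2 by -2.59 ± 0.36 in jar1-11 and -1.45 ± 0.32 in WT. The FEI2 change of -0.63 in JAR1-OE did not pass. With members at 0 reads set at their bound, the FLA median in jar1-11 was -3.61, against a fitted -4.40.

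AGP6, AGP11, AGP23 and AGP40, known from pollen, were called higher in WT drought on the reads of 1 library. AGP6 had 25.1, 0.253 and 0.463 CPM in WT drought, against 0.890, 0.654 and 0.992 CPM in WT control. AGP40 had 17.5, 0.253 and 0.308 CPM in WT drought, and AGP23 had 13.1, 0.253 and 0 CPM. In each case WT drought 1 was high and the other WT drought libraries were under 0.5 CPM. AGP11 had 31 reads in WT drought, 30 of them in WT drought 1, and 0 in WT control. Its pooled bound of at least 9.05-fold higher thus rests on that 1 library. FLA3, a pollen FLA, had 14 of its 16 reads in WT drought 1. In that library 10 flower identity genes summed to 44.2 CPM, against 0.507 and 0.463 CPM in the other WT drought libraries, and 12 pollen and anther genes to 152 CPM, against 8.74 and 10.8 CPM. In JAR1-OE drought the pollen list summed to 23.5, 209 and 77.9 CPM. AGP6 had 3.49, 4.47 and 2.58 CPM there, against 1.02, 1.74 and 1.55 CPM in JAR1-OE control. AGP23 had 23 reads in JAR1-OE drought, 18 of them in JAR1-OE drought 2, and 0 in JAR1-OE control. AGP11 had 4 reads under drought and 3 with water. AGP6, AGP23 and AGP40 did not pass in JAR1-OE with all libraries (adjusted p = 0.131 to 0.379). Each passed as higher in JAR1-OE without WT drought 1 (log2 fold change 1.28 to 5.96, adjusted p = 0.0276 to 0.0346). The WT log2 fold change was 3.28 for AGP6 with all libraries and -1.23 without WT drought 1. It was 4.30 and -0.01 for AGP40, 5.86 and 1.05 for AGP23, and 2.69 and 1.89 for AGP14 in the same order. None of these 4 passed in WT without WT drought 1 (adjusted p = 0.153 to 1), and 2 members rose and 23 of 40 fell. The share over all genes in that fit is not reported here. The WT calls of AGP6, AGP11, AGP23 and AGP40 were also lost without any 1 of the 3 WT control libraries. AGP14 did not rest on WT drought 1 alone, with 3.63, 1.77 and 0.308 CPM in WT drought. It had 0, 0.163 and 0.567 CPM in WT control, and its call was also lost without WT drought 2, WT control 1 or WT control 2.

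**Figure D4:**
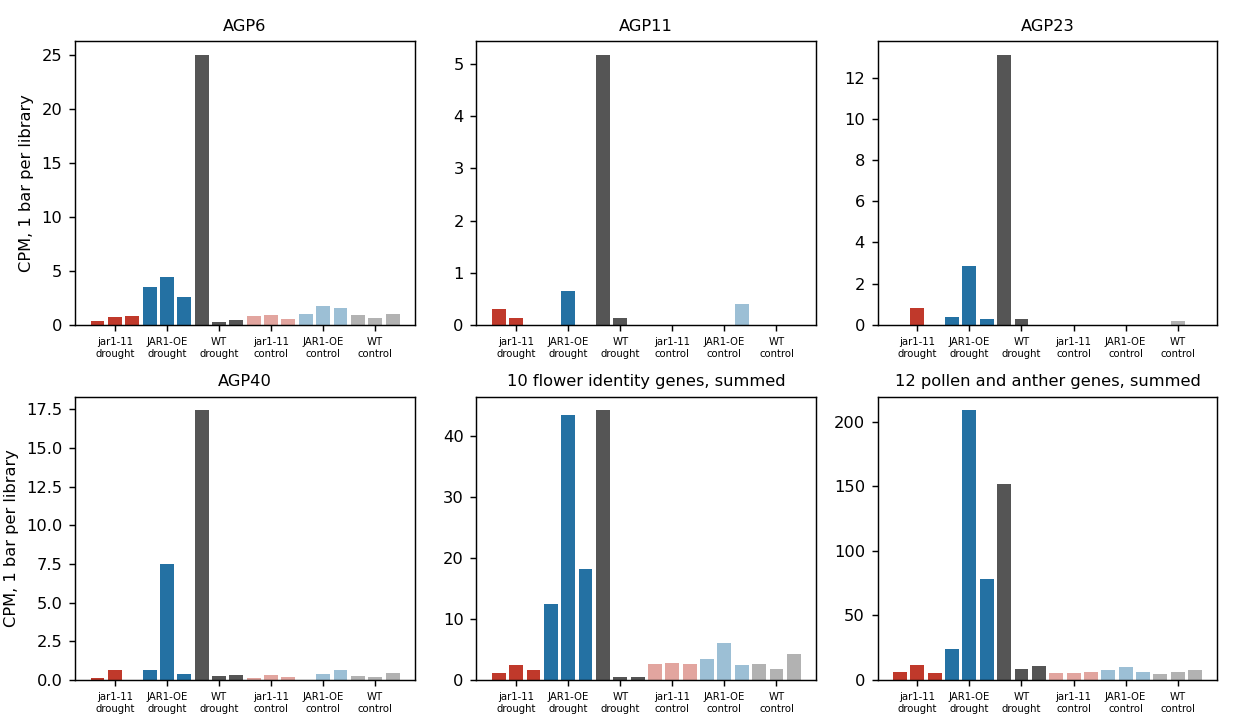
CPM in each library (1 bar each, 3 per group) of AGP6, AGP11, AGP23 and AGP40, with summed CPM of the flower identity and pollen lists; drought groups are drawn solid and controls pale. WT drought 1 has the tallest bar for the 4 members, and JAR1-OE drought 2 the tallest for the pollen list at 209 CPM.

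Between genotypes with water, no member differed between jar1-11 and WT, where 0.00506% of all genes were called (1 gene, JAR1). None reached an unadjusted p under 0.05 in edgeR, and DESeq2 and limma-voom also called 0. In JAR1-OE against WT with water, 5 members were higher and 0 lower, against 8.94% of all genes (4.35% higher, 4.59% lower). AGP31 had 209, 76.0 and 173 CPM in JAR1-OE control, against 39.6, 29.6 and 32.2 CPM in WT control (2.18 ± 0.66, adjusted p = 0.0438). FLA7 had 40.8, 28.1 and 37.6 CPM, against 10.9, 12.7 and 16.0 CPM in WT control (1.41 ± 0.31, adjusted p = 0.00963). AGP18 (1.13 ± 0.32), FLA2 (0.80 ± 0.24) and AGP20 (0.79 ± 0.22) were the others. None of these 5 ranges overlap, but 18 of the 41 tested members had no overlap in this comparison. The share over all genes was not computed. The count was 0 without JAR1-OE control 1, 1 without JAR1-OE control 3, and 2 without WT control 1 or WT control 3. Without any other single library it was 3 to 7. The calls of AGP31 and FLA2 were each lost in 11 of the 18 fits that left out 1 library. The root gene PYK10 had 12.2, 3.31 and 10.3 CPM in JAR1-OE control, against 1.34, 0.327 and 0.851 CPM in WT control, and its part in the result was not tested.

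Under drought, jar1-11 and WT differed in 32 members, 9 higher and 23 lower in jar1-11, against 30.9% of all genes (14.1% higher, 16.8% lower). The members' median was -2.28, and that of all genes -0.06. All 9 that were higher were AGP genes: AGP1, AGP2, AGP5, AGP10, AGP12, AGP15, AGP16, AGP20 and AGP24. The AGP24 call was lost in 4 of the 18 fits that left out 1 library (0.87 to 1.32, adjusted p = 0.0506 to 0.251). The count of 32 was 23 without jar1-11 drought 2, where AGP18 and FLA4 were among the calls lost. AGP2 had 579, 928 and 419 CPM in jar1-11 drought, against 39.4, 86.7 and 69.4 CPM in WT drought (3.30 ± 0.34, adjusted p = 6.13e-06), and AGP1 differed by 3.18 ± 0.39. AGP16 had 64.9, 210 and 73.4 CPM in jar1-11 drought, against 19.7, 30 and 23.6 CPM in WT drought (2.25 ± 0.35). AGP5 differed by 2.18 ± 0.56 (1.40 without jar1-11 drought 2, adjusted p = 0.0771), AGP12 by 2.14 ± 0.33 and AGP10 by 1.82 ± 0.33. Every jar1-11 drought library lay above the WT drought libraries for these 6 genes. In this comparison 29 of the 41 tested members had no overlap in one direction or the other. That share was not computed over all genes.

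Of the 14 FLA genes, 12 were lower in jar1-11 drought than in WT drought and 0 higher. FLA12 was at least 26.0-fold lower (0 against 83 reads), FLA2 at least 9.71-fold (0 against 31 reads) and FLA1 36.6-fold (3 against 117 reads, counting interval 12.2 to 180). FLA13 differed by -3.00 ± 0.29. Among AGP genes, AGP31 (-4.98 ± 1.00), AGP7 (-3.97 ± 0.98) and AGP4 (-3.92 ± 0.56) were lower. Without WT drought 1 the AGP31 difference was -2.73 (adjusted p = 0.00888) and that of AGP21 was 0.06 instead of -1.67. The differences of AGP6 (-3.80) and AGP40 (-4.17) turned to 0.71 and 0.13 without it, and those of AGP25 and AGP27 no longer passed. AGP21 lost its call in 14 of the 18 fits that left out 1 library. Its call was also lost with RLE scaling, DESeq2, limma-voom, the replicate block and only the groups compared. FLA9 differed by -2.24, a call lost on leaving out any 1 of 5 of the 6 libraries compared (-2.41 to -1.83, adjusted p = 0.0538 to 0.134). Of 13 xylem and secondary wall genes 9 (69.2%) were lower in jar1-11 drought, against 16.8% of all genes. The 4 leaf photosynthesis genes were also lower.

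JAR1-OE and WT differed under drought in 11 members, all higher in JAR1-OE, against 13.9% of all genes (8.09% higher, 5.79% lower). They were FLA1, FLA2, FLA7, FLA8, FLA13, FLA16, AGP4, AGP9, AGP18, AGP26 and AGP31. FLA2 had 9.05, 13.9 and 8.54 CPM in JAR1-OE drought, against 3.11, 1.01 and 0.771 CPM in WT drought (2.73 ± 0.36, adjusted p = 8.23e-05). FLA13 had 90.5, 55.2 and 71.4 CPM in JAR1-OE drought, against 23.0, 20.3 and 23.1 CPM in WT drought (1.71 ± 0.23, adjusted p = 5.62e-05). AGP31 differed by 2.65 ± 0.67, FLA1 by 1.95 ± 0.46, AGP4 by 1.49 ± 0.39 and FLA7 by 1.46 ± 0.36. The libraries did not overlap for any of the 11, and in all 13 of the 41 tested members had no overlap in this comparison. How many of all genes had none was not computed. The count was 20 without WT drought 1, 6 without WT drought 2, 4 without WT drought 3 and 7 without JAR1-OE drought 2. FLA1, FLA2, FLA13 and FLA16 passed in all 18 fits that left out 1 library. The 4 leaf photosynthesis genes were also higher in JAR1-OE drought.

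**Figure D5:**
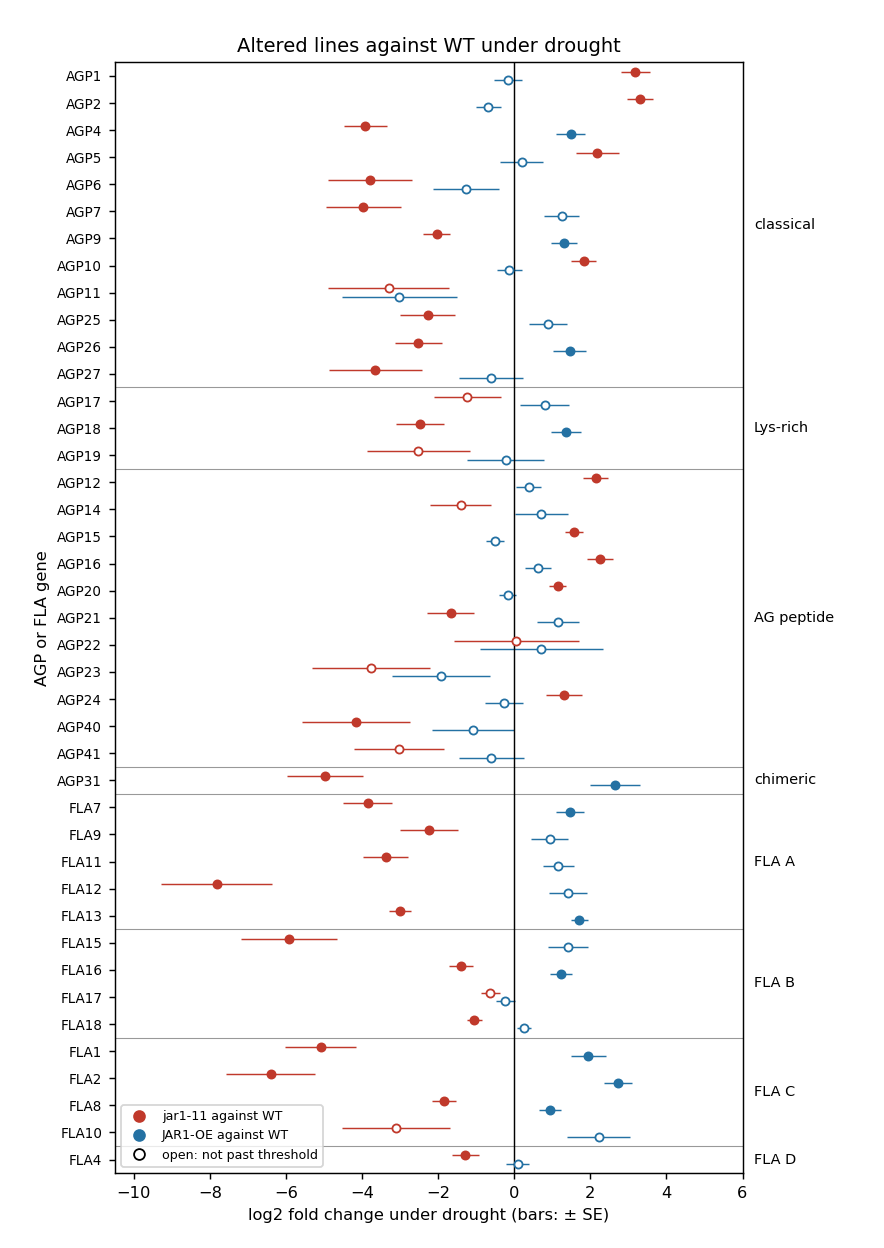
Log2 fold change under drought of jar1-11 against WT (red) and JAR1-OE against WT (blue) with SE bars for the 41 tested genes by class; filled points are past an adjusted p of 0.05. The filled blue points are all right of 0, and the filled red FLA points all left of it; both comparisons share the WT drought libraries.

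The drought response itself differed between jar1-11 and WT for 22 members, 7 with a higher and 15 with a lower log2 response, against 13.7% of all genes (5.72% higher, 8.01% lower). AGP2 (2.82 ± 0.52), AGP1 (2.74 ± 0.53), AGP12 (2.14 ± 0.45), AGP16 (2.07 ± 0.47), AGP10 (1.94 ± 0.47), AGP15 (1.36 ± 0.33) and AGP20 (1.17 ± 0.32) had the higher responses. For AGP16 that means a smaller fall in jar1-11. The 15 with the lower response included 10 FLA genes, among them FLA13 (-3.39 ± 0.36, adjusted p = 8.14e-05) and FLA7 (-3.76 ± 0.74). The count was 14 without jar1-11 drought 2, and those 14 passed in all 18 fits that left out 1 library. Of the 8 others, FLA9 lost its call in 13 of the 18 fits, AGP9 in 6, AGP31 and FLA11 in 3, AGP18 and AGP20 in 2, and FLA12 and AGP7 in 1. Without WT drought 1 the difference was -2.13 for AGP31 (adjusted p = 0.106), against -4.38 with all libraries. It was -2.41 for FLA9 (adjusted p = 0.0966), -1.27 for AGP9 (adjusted p = 0.0758), -2.17 for AGP18 (adjusted p = 0.0614) and -2.34 for FLA11 (adjusted p = 0.0559). JAR1-OE and WT differed in 2 responses, against 5.02% of all genes (3.51% higher, 1.51% lower): FLA2 (1.93 ± 0.44, adjusted p = 0.0197) and FLA13 (1.72 ± 0.31, adjusted p = 0.00335) fell less in JAR1-OE. That count was 8 without WT drought 1, where AGP31 (2.72 instead of 0.46) and AGP21 (2.31 instead of 0.57) were among those gained. It was 5 without jar1-11 drought 2, and 1, FLA13, without WT drought 2, WT drought 3 or JAR1-OE drought 2.

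Genes that modify the backbone and build the sugar chains moved in both directions. Of 8 tested prolyl 4-hydroxylase genes, 3 rose and 2 fell in jar1-11, 2 rose and 1 fell in JAR1-OE, and 4 rose and 1 fell in WT. Of 8 hydroxyproline galactosyltransferase genes, 2 rose and 2 fell in jar1-11, 2 rose in JAR1-OE, and 2 rose and 1 fell in WT. GALT2, which adds the first galactose, had 12.9, 11.9 and 13.5 CPM in jar1-11 drought, against 0.937, 1.92 and 1.02 CPM in jar1-11 control (3.31 ± 0.35). It also rose in JAR1-OE (1.56 ± 0.33) and WT (3.09 ± 0.36). Of 11 genes for later steps of the chains, 1 rose and 4 fell in jar1-11, 1 rose and 1 fell in JAR1-OE, and 1 fell in WT, the fucosyltransferase gene FUT4 (-2.23 ± 0.41). Of 3 primary wall cellulose synthase genes, 2 fell in jar1-11, 1 in JAR1-OE and 0 in WT. Of 2 galactosidase genes, 1 rose, in JAR1-OE. In jar1-11, 62.5% of the hydroxylase genes, 4 of the 8 galactosyltransferase genes and 45.5% of the later chain genes were called, against 53.5% of all genes. In JAR1-OE these were 37.5%, 2 of 8 and 18.2%, against 26% of all genes. In WT they were 62.5%, 37.5% and 9.09%, against 35.4% of all genes. The galactosyltransferase shares were near those of all genes in each genotype.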

How the data were processed

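Libraries were made with a QuantSeq 3' kit and sequenced as single 50-base reads, per the labels' protocols. The deposited files give read counts per gene from the authors (unique gene reads). Neither labels nor file headers name the aligner, counter, build or strand setting. Library totals were 4716155 to 9506727 reads. The 1 transgene entry was kept out of totals and tests.

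All 19752 genes with 20 or more reads over 18 libraries were fitted with 1 mean per group in edgeR 4.0.16 (R 4.3.3; TMM scaling, quasi-likelihood F-test, Benjamini-Hochberg over all genes, threshold 0.05). Fold changes are log2 ± SE, and the biological coefficient of variation was 20.1%. Same-group libraries differed beyond sampling noise (chi-square per degree of freedom 5.78 to 29.9 over 18 pairs). The procedure was tested on simulated data.

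Where a group had 0 reads, a bound was computed from a floor of 3 reads over the group. With 1 to 3 reads the ratio is given with an exact 95% interval. These folds were first computed on raw library totals and then moved to TMM-scaled sizes, the scale of the CPM values and of an earlier analysis of these data. The choice was made after the values were seen, and both are given in the closing section.

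The members, classes and gene lists were chosen with earlier results of these data known. Library values, reads or fold changes are given for up to 6 rises and 6 falls per comparison among members with a mean of at least 10 CPM. The same holds for the 6 members of highest level. Also run were limma-voom (limma 3.58.1), DESeq2 1.42.0, edgeR with RLE scaling, 2 other filters, a replicate block, only the groups compared, and leaving out each library.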

Additional observations from a re-analysis of the deposited data

Results flagged for a closer look

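The drought response differed between jar1-11 and WT, in a direct test of the difference (edgeR, adjusted p under 0.05), for 22 members. The log2 difference was positive for AGP2 (2.82), AGP1 (2.74), AGP12 (2.14), AGP16 (2.07), AGP10 (1.94), AGP15 (1.36) and AGP20 (1.17). It was negative for AGP31 (-4.38), FLA7 (-3.76), AGP4 (-3.45), FLA13 (-3.39), FLA11 (-2.76), AGP18 (-2.73), FLA9 (-2.50), AGP9 (-1.73), FLA8 (-1.69) and FLA18 (-1.18). FLA1 (-4.74 fitted) and AGP7 (-4.20 fitted) rest on 3 reads and 1 read in jar1-11 drought. The same reads, pooled, gave -4.91 for FLA1 (counting interval -7.18 to -3.36) and -4.67 for AGP7 (-9.98 to -2.19). For the members with 0 reads in jar1-11 drought, a floor of 3 reads over that group gave -3.74 for FLA12, -3.46 for FLA2 and -3.13 for FLA15. These values take the pooled reads of the other groups as exact and leave out the spread between libraries, so they are not strict minimums. Of these 22 calls, 8 were lost in 1 or more of the 18 fits that left out 1 library (FLA9 in 13, AGP9 in 6, AGP31 and FLA11 in 3, AGP18 and AGP20 in 2, FLA12 and AGP7 in 1). Without WT drought 1, the values that no longer passed were -2.13 for AGP31, -2.41 for FLA9, -1.27 for AGP9, -2.17 for AGP18 and -2.34 for FLA11. The response differed between JAR1-OE and WT for FLA2 (1.93) and FLA13 (1.72). The FLA2 call was lost without WT drought 2, WT drought 3 or JAR1-OE drought 2 (1.62 to 1.68).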

How the results depend on the processing

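Direction was kept by all 751 values of the 108 gene results under other tools, scalings, filters, the block or subsets of libraries, and 38 of them no longer passed. Of 767 values without 1 library of the groups compared, 94 no longer passed and 3 reversed, all without WT drought 1. Without 1 library, the WT drought value ran over -0.0070 to 4.87 for AGP40 and -1.23 to 3.86 for AGP6, and jar1-11 against WT drought over -2.13 to 0.064 for AGP21. For JAR1-OE against WT with water the count of 5 became 8 by limma-voom and 3 with the replicate block, and 0 to 7 without 1 library. For JAR1-OE against WT under drought the 11 became 6 with only the groups compared and 4 to 20 without 1 library. The 22 different responses of jar1-11 became 14 to 25 without 1 library, and the 2 of JAR1-OE became 1 to 8. Counts without 1 of all 18 libraries were 22 to 29 for WT drought, 28 to 32 for jar1-11 drought, 20 to 25 for JAR1-OE drought and 23 to 34 for jar1-11 against WT under drought.

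Same-numbered libraries shared only a number: over 45 pairs their deviations correlated at -0.41 to 0.27. With the replicate block the drought counts were 30 in jar1-11, 20 in JAR1-OE and 25 in WT, and under drought 30 for jar1-11 and 11 for JAR1-OE against WT.

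Folds and bounds of members with 0 to 3 reads in a group depend on the library sizes used. On raw library totals, computed first, jar1-11 drought against control was at least 636-fold lower for FLA2 (601 with TMM-scaled sizes), at least 85.7-fold for FLA12 (81.1) and 2548-fold for AGP7 (2411). Over 27 such values the raw-total fold was 0.946 to 1.09 times the TMM-scaled one. Depth limits members with few reads: AGP19, AGP22, AGP27 and FLA10 rest on few reads.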
